A study of Mus musculus with 3 samples.

Results

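Gene expression in the mouse dental papilla was compared between embryonic day 18 (E18) and embryonic day 16 (E16), the interval in which the first odontoblasts differentiate. The comparison takes 2 of the 3 arrays of the study, and for each probe set the E18 value was divided by the E16 value after control probe sets were left out. Of 18193 genes named on the array, 12030 were measured, meaning that their brightest probe set reached a signal of 82, the floor set at the median of all signals, at E16 or at E18. Papillae came from ICR mice at both stages, were freed by enzyme treatment from the first molar germs of the lower jaw, and were pooled over more than 20 papillae for each RNA sample. No allele, transgene or drug treatment is named. A postnatal day 3 (P3) array made in the same way is given below as context. It also entered the floor and the choice of the brightest probe set. RNA was amplified by 2-cycle labelling to biotin-tagged cRNA and read on an oligonucleotide array, with 1 array per stage. Without replicates no test or error between stages is possible, and each statement compares these pools of papillae. The spread between probe sets of a gene, which are groups of short oligonucleotides placed along its transcripts, stands in for measurement error here and does not hold what is common to a whole array.

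The dental papilla is the neural crest derived mesenchyme that lies under the enamel organ, the epithelium of the tooth germ. Its outermost cells leave the cell cycle under signals from the inner enamel epithelium and become odontoblasts, which secrete a collagen matrix and acidic phosphoproteins that mineralise to dentin, while the core becomes the dental pulp. BMP, TGF-beta, activin, Wnt, FGF and Hedgehog signals pass between epithelium and papilla, and homeobox and other transcription factors keep the mesenchyme competent to answer them.

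The dentin genes Dspp and Dmp1 were at least 51.1-fold and 45.4-fold higher at E18, and the ligand genes Bmp2 and Tgfb2 12.3-fold and 5.54-fold. The Dspp bound is uncertain for a reason given below. The early dental mesenchyme genes Eya1, Inhba and Lhx6 were 8.08-fold, 7.85-fold and 4.45-fold lower. Dmp1, whose product is an acidic phosphoprotein of dentin and bone, and Egr2, a zinc finger transcription factor of the early growth response family, differed in opposite directions. Of the genes in the RefSeq promoter table (GRCm38.p6), Dmp1 had the largest increase that is a lower bound. Among members of the gene lists used here that are in that table, Egr2 was the lowest at or above the floor on both arrays; genes outside the lists, such as Tril, were lower. The 250 bases before their annotated starts are shown for that reason, for both Dmp1 starts and for 1 of 5 Egr2 starts, chosen because it holds a motif. Capitals mark a match to any of the motifs searched on both strands, which were TGTGGT (Runx core), TAATTA (homeodomain core), AACAAAG (Tcf/Lef core), TATAAA and the CArG box of serum response factor. No matches overlapped in these windows. The Dmp1 windows are chr5:104197325-104197574 and chr5:104202367-104202616 on the + strand, and that of Egr2 is chr10:67537316-67537565 on the + strand, each written 5′ to 3′.
Dmp1 start 1: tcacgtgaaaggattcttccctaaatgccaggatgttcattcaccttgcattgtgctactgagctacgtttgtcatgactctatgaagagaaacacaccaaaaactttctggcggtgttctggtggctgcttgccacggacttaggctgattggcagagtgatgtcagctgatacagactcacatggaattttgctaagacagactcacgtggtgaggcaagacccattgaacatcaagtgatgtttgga
Dmp1 start 2: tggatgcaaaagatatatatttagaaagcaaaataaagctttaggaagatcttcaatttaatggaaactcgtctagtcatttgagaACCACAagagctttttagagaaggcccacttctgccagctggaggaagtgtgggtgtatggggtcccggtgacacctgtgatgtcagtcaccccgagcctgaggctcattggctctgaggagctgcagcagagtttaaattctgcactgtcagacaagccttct
Egr2 start 2: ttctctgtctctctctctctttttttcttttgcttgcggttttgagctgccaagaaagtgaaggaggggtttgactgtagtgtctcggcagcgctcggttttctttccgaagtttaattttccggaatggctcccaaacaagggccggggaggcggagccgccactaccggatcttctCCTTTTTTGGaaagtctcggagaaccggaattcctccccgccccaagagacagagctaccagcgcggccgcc
The only match at Dmp1 was a TGTGGT on the - strand, 164 bases before the second start. A CArG box lay on the + strand 72 bases before the second Egr2 start. Another, CCATATATGG, lay within the 3 overlapping windows of the remaining Egr2 starts but not in the window of the first. Over all 32851 windows of the table, 14.05% held TGTGGT, 4.84% TAATTA, 5.029% AACAAAG, 12.37% TATAAA and 1.467% a CArG box. Taking the first window of each gene, TGTGGT was found in 10.5% of 9701 measured genes in the table, in 10% of 769 genes at least 2-fold higher at E18 and in 11.2% of 783 lower. The CArG box was found in 1.08% of measured genes, 1.04% of the higher and 0.639% of the lower genes. These matches describe letters and not binding.

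At the E18 stage 974 of 12030 genes (8.1%) passed 2-fold upward by their brightest probe set and 978 (8.13%) downward, so 16.2% passed 2-fold in either direction. Of these, 142 in the first set and 110 in the second were below the floor on 1 array, and their fold is a bound, written "at least". A 4-fold difference was passed by 141 genes that were higher and 72 that were lower, while 7505 genes (62.4%) stayed within 1.5-fold. The median log2 difference of all measured genes was -0.04, and 5% of genes lay below -1.21 and 5% above 1.23. Log2 signals of the 10352 genes at or above the floor on both arrays correlated with r = 0.859 across genes, which are not independent replicates. The shares of 8.1% higher and 8.13% lower are the background for each list count below. No difference of a list from them was tested.

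**Figure D1:**
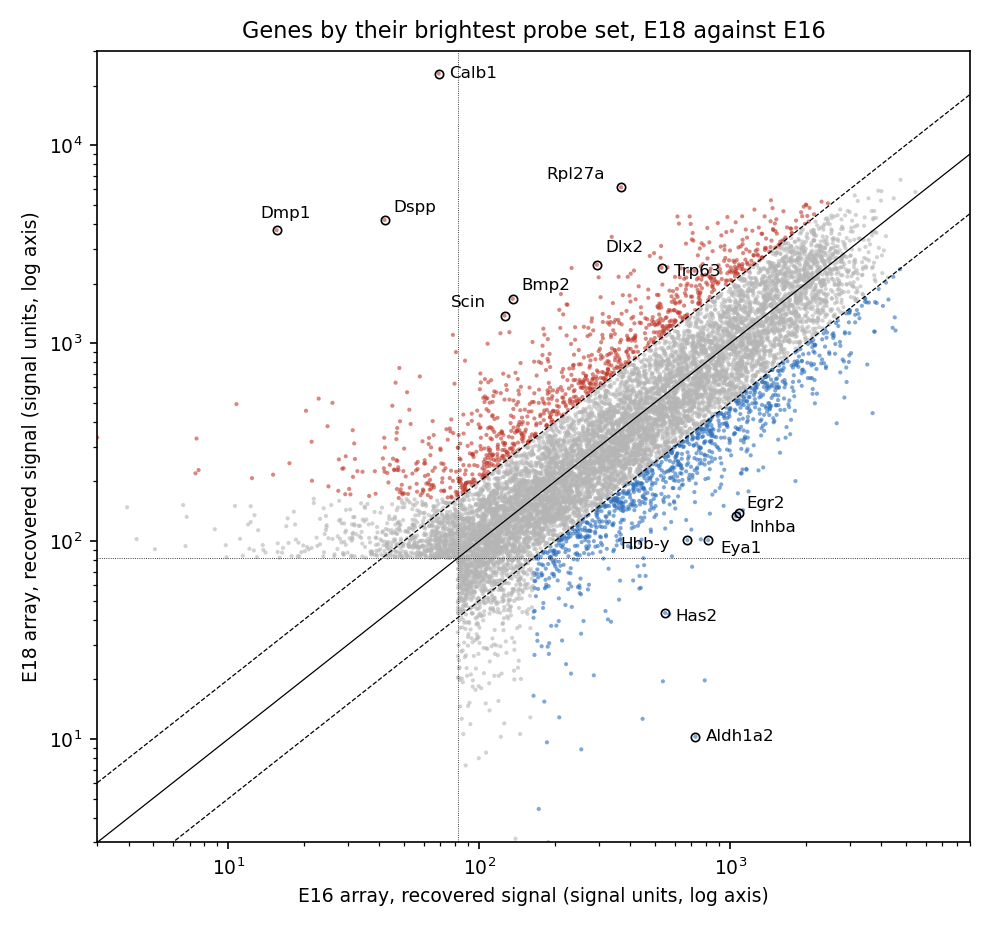
Recovered signal of each of 12030 genes by its brightest probe set on the E16 array (x) and the E18 array (y), both log axes, with 974 genes at least 2-fold higher in red and 978 lower in blue. Dashed lines mark 2-fold and dotted lines the floor of 82; Calb1, Dspp and Dmp1 lie left of the floor at E16 and reach 3720 or more at E18.

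Several measurements that concern whole arrays moved with the stage. The 18 probe sets for spike-in controls added at hybridisation had E18 over E16 ratios of 1.68 to 4.43, with a median of 2.17. The 3′ over 5′ ratio of actin, which responds to RNA integrity and amplification, was 3.87 times as high at E18 as at E16, by 1 probe set at each end. The same controls for Gapdh, pyruvate carboxylase and the transferrin receptor each had a signal below the floor (as low as 51.3, 77.4 and 8.54), and no ratio is given for them. Of 50 markers of dental epithelium and enamel organ, 34 were measured, of which 17 passed 2-fold upward and 0 downward, and 12 were below the floor on both arrays. Their summed signal was 16505 at E16, 43701 at E18 and 23762 at P3. The part of these measurements in the gene differences below was not tested.

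Probe sets of the same gene often differed in their E18 over E16 ratio. Of 5045 genes with at least 2 measured probe sets, 81 (1.61%) were at least 2-fold higher by every measured probe set and 62 (1.23%) lower by every one, and in 49.3% all probe sets had the same sign. Of the 468 genes called higher by the brightest probe set that had another, the others had a median log2 difference of 0.42 against 1.35 for the brightest, and in 80 none had the same sign. Of the 451 called lower, the medians were -0.39 and -1.29, and in 85 none of the others had the same sign. Part of this gap follows from the choice, since the genes were called on the brightest probe set. Across 4047 genes with a pair of probe sets on both arrays the differences correlated with r = 0.354, and the SD of 1 probe set was 0.59 on the log2 scale. Where the dimmer probe set was under 200 signal units r was 0.20 (1485 genes), and at 500 or more it was 0.43 (1082 genes). Values of other measured probe sets are therefore given beside those of the brightest.

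**Figure D2:**
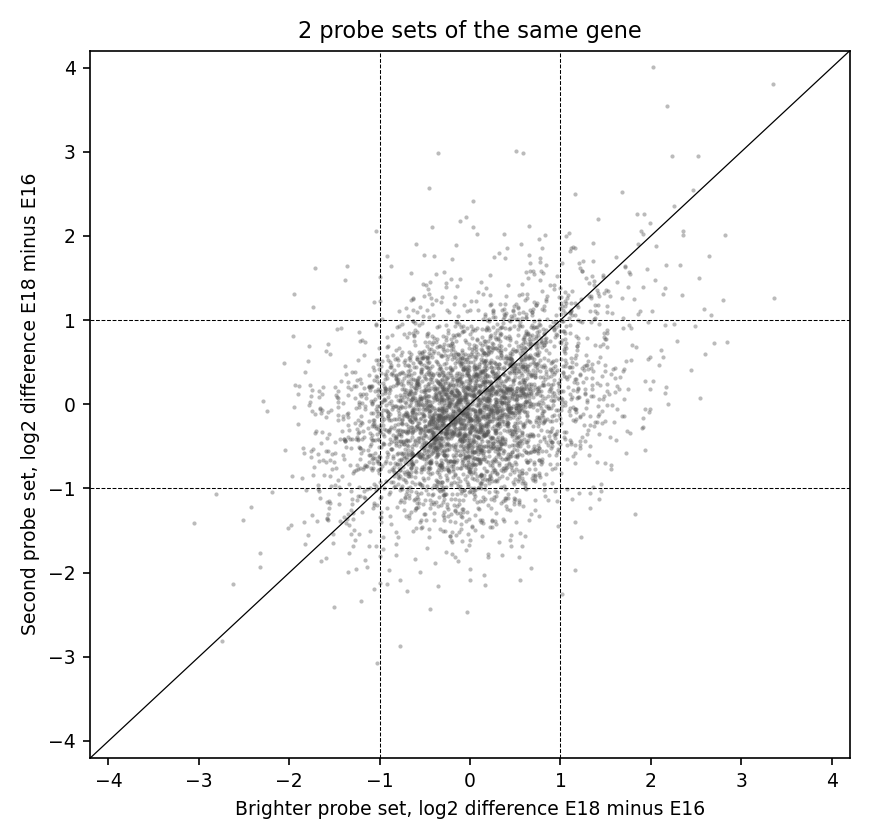
Log2 difference E18 minus E16 of the brighter probe set (x) against the second probe set (y) in 4047 genes with both at or above the floor on both arrays; the solid line is equality and dashed lines mark 2-fold. The cloud is broad around the line (r = 0.354), and most genes past 2-fold by the brighter probe set are under 2-fold by the other.

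Among genes whose probe sets all passed 2-fold on both arrays, Trp63 and Ccnd1 stood highest and embryonic globin Hbb-y lowest. Ccnd1, the cyclin that drives cells through G1, read 810 at E16, 3818 at E18 and 1452 at P3 by its brightest probe set. It was 4.71-fold higher at E18, and 7.73-fold and 5.05-fold by the other probe sets, so all 3 put E18 well above E16. Trp63, the master transcription factor of stratified epithelia, read 532, 2400 and 534 at E16, E18 and P3, a 4.51-fold difference, and 11.6-fold by a second probe set. By the brightest probe set E16 and P3 were nearly level, but by the second P3 (214) stood above E16 (93.9) and below E18 (1093). Naca, a ribosome-associated chaperone subunit, was 4.76-fold and 5.10-fold higher. Cox6a1, a cytochrome c oxidase subunit, was 3.80-fold and 4.79-fold higher, and the collagen gene Col27a1 3.59-fold and 4.81-fold. All probe sets of Naca and Cox6a1 were of kinds named _a_at or _s_at, with no plain _at one. Of measured _a_at probe sets, 9.68% were at least 2-fold higher and 6.15% lower, and of _s_at ones 10.8% and 7.72%. Plain _at probe sets were higher in 6.57% and lower in 8.52%. Dsp, which encodes the desmosomal linker desmoplakin, was 3.63-fold and 3.74-fold higher. The other 9 of the 15 highest were Ankrd6, Selenbp1, Cpeb4, Atp5k, Olfm1, Chfr, Dynlt3, Pdap1 and Selenok, with probe sets between 2.09-fold and 6.95-fold.

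On the lower side, Hbb-y, the embryonic beta-like globin, read 675 at E16, 101 at E18 and 26 at P3. It was 6.68-fold lower at E18 and 7.03-fold by a second probe set. Both are named _x_at, a kind whose probes can also match other transcripts. A further Hbb-y probe set was below the floor at E16, E18 and P3 (3.88, 4.86 and 5.8). Myb, a transcription factor of progenitor cells, read 1072, 174 and 169 and was 6.16-fold lower, with 4.41-fold by a second probe set. In both genes E16 stood above the later arrays. Tril, a Toll-like receptor accessory protein, gave 8.34-fold and 2.65-fold lower values by its probe sets. Mab21l1, a developmental regulator of the craniofacial region, was 5.01-fold and 3.82-fold lower, and Cntn3, a contactin of the immunoglobulin family, 5.70-fold and 2.60-fold. The other 10 were Emb, Cdc42ep4, Tmem132c, Rcc2, Fndc10, Spata5, Tmem191c, Chst15, Aars and Galnt2, with probe sets between 2.09-fold and 6.99-fold. Among 1987 genes with at least 3 measured probe sets, 16 were higher by every one and 7 lower. Some examples follow. Edaradd, the adaptor of the ectodysplasin receptor, was higher by log2 1.43 to 2.35 over 4 probe sets, and Tgfbi, a TGF-beta induced matrix protein, by 1.25 to 1.76 over 4. Atf2 was lower, with a median of log2 -1.52 over 3 probe sets, and Lpin2 at -1.14 to -1.01 over 4.

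**Figure D3:**
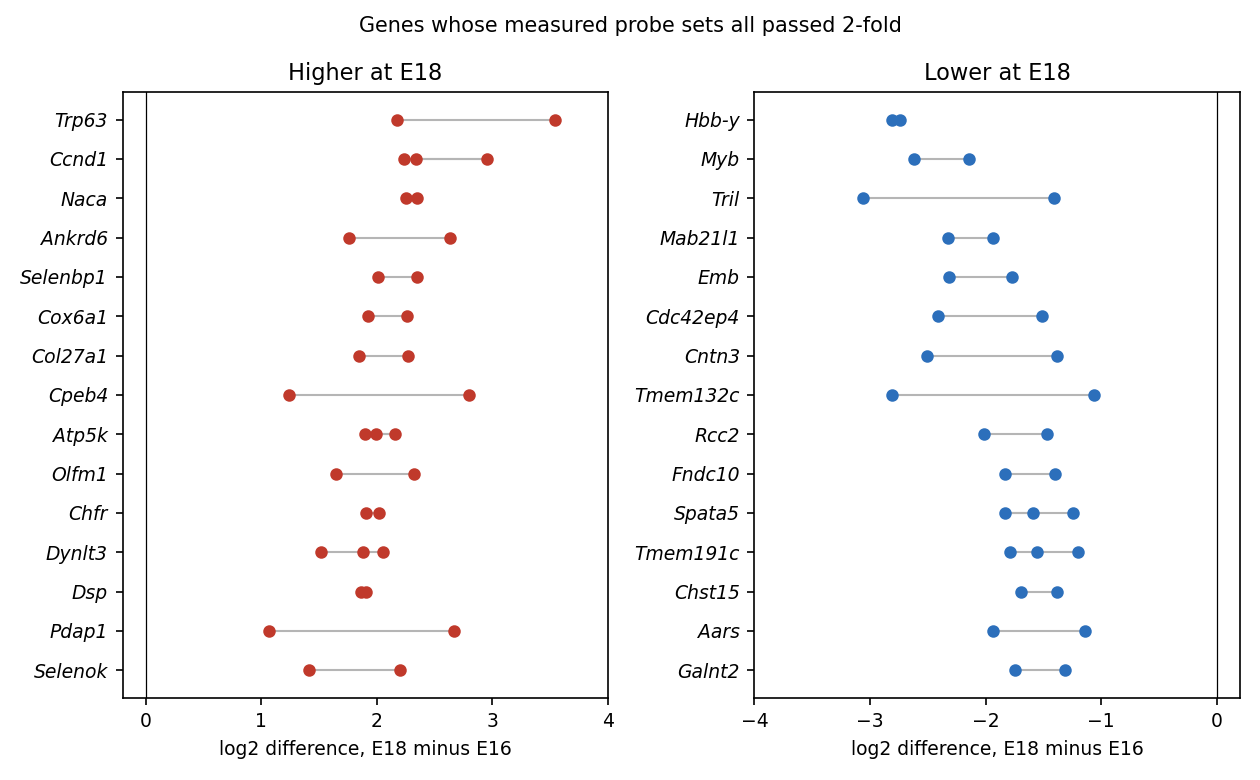
Log2 difference E18 minus E16 of each measured probe set (points, joined by a line per gene) for the 15 highest and 15 lowest genes whose probe sets all passed 2-fold, with both arrays reaching the floor. Ccnd1 spans 2.24 to 2.95 and Hbb-y -2.81 to -2.74, while the points of Trp63 and Tril lie over 1 log2 unit apart.

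The largest difference, as a bound, was in Calb1, which encodes calbindin, a calcium-buffering protein abundant in enamel-forming cells and also described in odontoblasts. Its brightest probe set read 68.9 at E16, 23006 at E18 and 6890 at P3, at least 281-fold higher at E18. The E16 array was below the floor in all 4 measured probe sets of the gene. The others gave at least 27.1-fold, 4.88-fold and 1.57-fold, which makes Calb1 the gene with the widest gap between probe sets (7.48 log2 units). Dspp, which encodes the precursor of the main non-collagenous dentin proteins, read 41.9 at E16, 4191 at E18 and 19517 at P3, at least 51.1-fold higher at E18 by its only probe set. Dmp1 read 15.6, 3720 and 782, at least 45.4-fold higher, with at least 26.5-fold and 1.82-fold by 2 other probe sets. Dspp was higher again at P3, whereas Dmp1 and Calb1 had their highest value at E18. The E16 reading of Calb1 (68.9) holds the digits of its P3 reading (6890), and that of Dspp (41.9) those of its E18 reading (4191). A lower limit on the deposited ratios would give this and was not tested, so the signals and bounds of Calb1 and Dspp are uncertain.

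Of 25 genes of odontoblasts and dentin matrix, 19 were measured. Their median log2 difference was 0.61, and 7 passed 2-fold upward and 3 downward. Among the 13 that reached the floor already at E16, 2 were higher and 3 lower, against 7.44% and 8.75% of all 11180 such genes, so the list leans up mainly through genes below the floor at E16. Panx3, a channel protein of skeletal and dental cells, read 373, 1746 and 870 at E16, E18 and P3 and was 4.68-fold higher, with bounds of log2 2.86 and 2.34 by the other probe sets. Col24a1, a fibril collagen of mineralising tissue, read 46.4, 631 and 666, at least 7.69-fold higher. Phex, an endopeptidase whose loss causes phosphate wasting, was at least 3.99-fold higher at E18 (46.7, 327 and 4148) with a second probe set at log2 0.08, and Fam20c, the kinase that phosphorylates secreted matrix proteins, at least 2.82-fold. Col24a1, Phex and Fam20c were below the floor at E16 whereas Panx3 was not, and Phex was much higher at P3 than at E18.

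Not every gene of mineralised matrix was higher at E18. Alpl, alkaline phosphatase, differed by log2 -0.10 and Sparc, a collagen-binding glycoprotein, by 0.19. Smoc2, a calcium-binding matricellular protein, read 4554 at E16, 1158 at E18 and 598 at P3 and was 3.93-fold lower (log2 -0.85 by a second probe set). Ibsp, bone sialoprotein, read 1183, 486 and 335 and was 2.44-fold lower. The phosphate transporter gene Slc20a1 had a brightest probe set 3.89-fold lower and another that was higher, by log2 0.81. Among 19 measured markers of dental follicle and alveolar bone, which surround the papilla, 5 were higher and 4 lower (median -0.26, but 0.47 at 2 times the floor and 0.49 with both arrays at the floor). Omd, osteomodulin, was 5.84-fold higher (530, 3094 and 3296), and Tnmd, tenomodulin, at least 5.21-fold lower (427, 74.5 and 159).

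**Figure D4:**
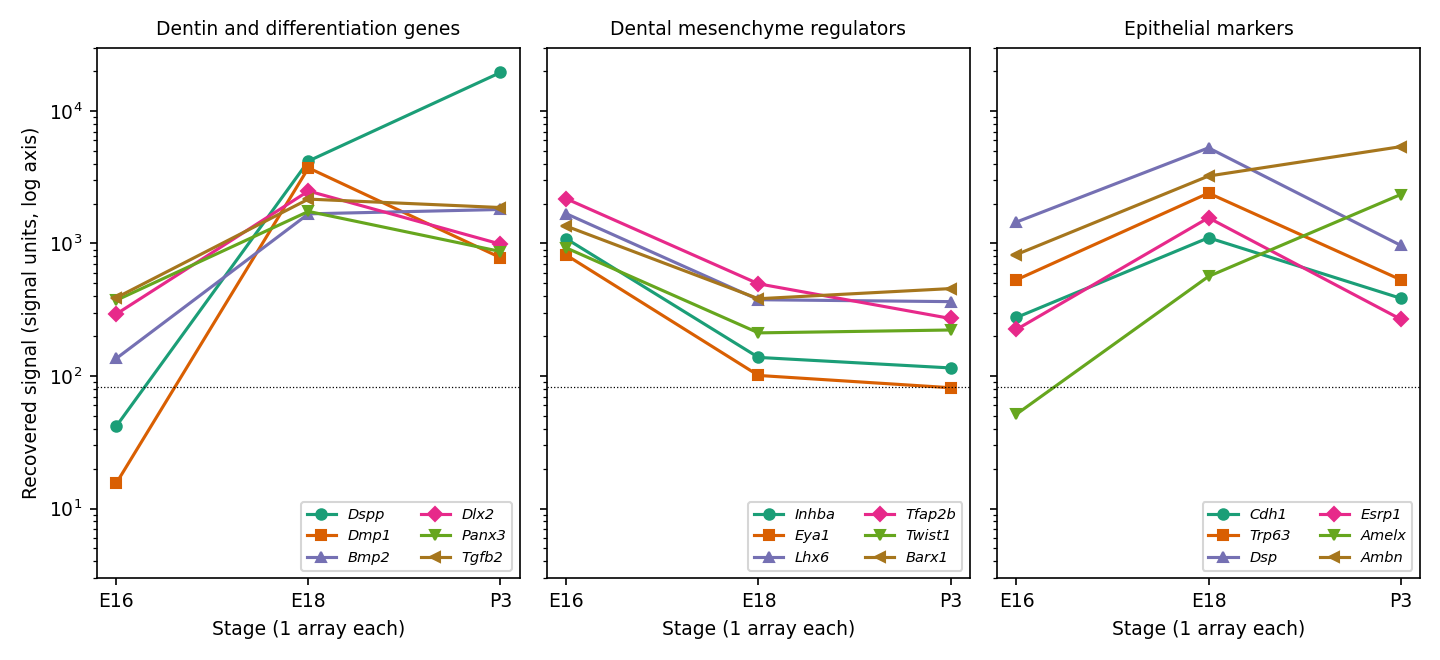
Recovered signal (log axis) on the E16, E18 and P3 arrays, 1 array per stage, by the brightest probe set of genes in 3 groups; the dotted line is the floor of 82. Dspp goes from 41.9 to 4191 to 19517, the mesenchyme regulators shown are lower at E18 than at E16, and the epithelial genes Cdh1, Trp63, Dsp and Esrp1 are highest at E18. Of 43 measured transcription factors of the dental mesenchyme, 9 were higher and 12 lower. The higher ones are not among the regulators shown, and Dlx2, 1 of them, is drawn with the dentin genes.

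In the BMP pathway, which drives odontoblast differentiation, 5 of 25 measured members were higher and 3 lower (median -0.06). The ligand gene Bmp2 read 136 at E16, 1674 at E18 and 1806 at P3, 12.3-fold higher at E18 by its only probe set. Bmp4, the mesenchymal BMP of the early tooth, differed little (977, 670 and 354, 1.46-fold lower). Of the genes induced by BMP, 4 passed 2-fold. Id1 was 4.14-fold higher (82.7, 343 and 174), Id2 3.23-fold, the inhibitory Smad6 2.45-fold (216, 529 and 1338) and the pseudoreceptor gene Bambi 2.32-fold. Others in the list, such as Id4 (log2 0.68 and 0.94 by 2 probe sets), were under 2-fold or not measured. Id1 was close to the floor at E16, and the second probe set of Id2 gave a bound of log2 0.59. The lower members were Bmp1, a procollagen C-proteinase (3.12-fold), Twsg1, a secreted BMP modulator (2.76-fold, but log2 -0.13 and -0.05 by 2 others), and the ligand gene Bmp6 (at least 2.28-fold).

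Among TGF-beta and activin genes, 4 of 25 measured members were higher and 5 lower (median 0.05). Tgfb2, a ligand gene, read 390 at E16, 2163 at E18 and 1868 at P3, 5.54-fold higher, with log2 2.55 and 3.51 by 2 other probe sets and a bound of 0.09 by the dimmest. Tgfb3 went the other way, reading 604, 146 and 906 and 4.13-fold lower at E18 than at E16, with P3 above both. Tgfb1 differed by 1.23-fold. Inhba, which encodes the activin subunit made by early dental mesenchyme, read 1084, 138 and 115 and was 7.85-fold lower. Skil, a Smad co-repressor induced by TGF-beta, was 2.46-fold higher and the receptor gene Tgfbr1 2.22-fold lower, although a second Tgfbr1 probe set gave a bound of log2 0.41.

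Of 57 transcription factors of the dental mesenchyme, 43 were measured, 9 past 2-fold upward and 12 downward, and the median was -0.34 against -0.04 for all genes. Eya1, a transcriptional coactivator and phosphatase, read 816 at E16, 101 at E18 and 81.6 at P3 and was 8.08-fold lower. The LIM-only gene Lmo1 read 1578, 279 and 122 (5.65-fold lower), and the LIM homeobox gene Lhx6 1675, 376 and 364 (4.45-fold lower). Each of these has its high value at E16 and low values on both later arrays. Twist1, a helix-loop-helix factor of undifferentiated mesenchyme, was 4.37-fold lower (925, 212 and 222), and Tfap2b, an AP-2 factor of neural crest cells, 4.38-fold (2173, 496 and 272). The homeobox gene Barx1, which specifies molar identity, was 3.53-fold lower (1351, 383 and 457). Pax9, needed for tooth development beyond the bud, was also 3.53-fold lower (1383, 391 and 309), but its other probe sets gave log2 0.39 and -0.97. Msx1, the homeobox gene that acts with Pax9, differed by 1.29-fold (927, 721 and 1666).

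The higher transcription factors were led by Satb1, a chromatin organiser, which read 337, 3443 and 1568 at E16, E18 and P3. It was 10.2-fold higher, and the other 4 probe sets gave log2 3.81 and 4.05 and bounds of 3.27 and 0.84. Dlx2, a homeobox gene expressed in dental mesenchyme and epithelium, read 294, 2489 and 989 (8.47-fold higher). Its neighbour gene Dlx1 was 3.02-fold lower (847, 281 and 387), so this pair of Dlx genes differed in opposite directions, each by its only measured probe set. Klf4, a zinc finger factor of differentiating epithelia and odontoblasts, was 7.08-fold higher (616, 4362 and 1857), with a bound of log2 1.35 by another probe set. Tfap2a, an AP-2 factor of neural crest and surface epithelium, was 7.07-fold higher (208, 1472 and 286), with log2 2.01 and a bound of 0.49 by its others. Klf4, Tfap2a, Dlx2 and Satb1 each had the E18 array above both others, as the summed epithelial markers did. Dmp1, Panx3 and Ccnd1 had the same order, and the cells behind these values were not tested.

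The Wnt pathway had 3 of 48 measured members higher and 12 lower, with a median of -0.36. Over all genes 8.1% were higher and 8.13% lower, and the difference from them was not tested. The receptor gene Fzd1 read 3514 at E16, 780 at E18 and 807 at P3, 4.51-fold lower, and Ror2, the co-receptor for Wnt5a, was 2.92-fold lower (log2 -0.66 by another probe set). The secreted antagonist gene Frzb was 3.98-fold lower (1810, 455 and 502). Apcdd1, a membrane inhibitor of Wnt signalling, had a brightest probe set at 2388, 1169 and 549, 2.04-fold lower. Its 5 other measured probe sets were all lower at E18 too, from log2 -3.08 to a bound of -0.73. The ligand gene Wnt9a was 2.84-fold lower and the Wnt target Axin2 2.02-fold, while the ligand gene Wnt5a was under 2-fold lower by all 3 measured probe sets (log2 -0.37, -0.57 and -0.64). Ligands, receptors and antagonists were thus all represented among the lower members.

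Among 21 measured FGF genes 1 was higher and 4 lower (median -0.13). The higher one was Spry2, a feedback inhibitor of FGF signalling (337, 941 and 836, 2.79-fold), with a bound of log2 -0.31 by its other probe set. Il17rd, an antagonist of FGF receptors, was 4.76-fold lower (920, 193 and 132; log2 -0.08 by another probe set), and the ERK phosphatase gene Dusp6 2.32-fold lower (2052, 886 and 466). The ligand genes Fgf3 and Fgf10 were 1.48-fold and 1.09-fold lower. Of 17 Hedgehog genes, Shh, the epithelial ligand, was 2.10-fold higher (751, 1574 and 543) and the glypican gene Gpc3 3.01-fold lower, while the target Gli1 differed by 1.11-fold. In the retinoic acid list 1 of 15 measured members was higher and 2 lower. Aldh1a2, which makes retinoic acid, read 726 at E16, 10.3 at E18 and 29.8 at P3, at least 8.86-fold lower at E18. Cyp26a1, which breaks it down, read 624, 4016 and 603 and was 6.43-fold higher, and the receptor gene Rarg was 2.51-fold lower. The list median was 0.00 as measured but -0.59 at 2 times the floor. In the Notch list 2 of 22 were higher and 2 lower. The Notch-binding protein gene Dner was 4.02-fold higher (270, 1085 and 205; log2 1.10 by another probe set) and the target Hes1 2.15-fold.

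Immediate early genes, which respond to stimuli and to tissue handling within minutes, had 7 of 25 measured members higher and 3 lower (median 0.47). Fos, the best known of them, read 419 at E16, 1096 at E18 and 291 at P3 (2.62-fold higher), Jund was 2.52-fold higher and Egr1 differed by 1.14-fold (1107, 1260 and 990). Within the early growth response family, Egr2 read 1054, 133 and 128 and was 7.91-fold lower (a bound of log2 -1.28 by its other probe set), and Egr3 read 486, 148 and 615 (3.27-fold lower). The family therefore differed within itself, and the list's higher members did not include it. Egr2 is also a Schwann cell gene, and of 14 measured Schwann cell and glia markers 2 were higher and 1, Egr2 itself, lower. Sox10, a defining factor of that lineage, read 234, 128 and 212 (1.83-fold lower).

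Collagen chains differed in both directions, with 7 of 34 measured members higher, 6 lower and a median of -0.05. Among the 29 that reached the floor already at E16, 3 were higher and 6 lower, against 7.44% and 8.75% of all such genes. Col1a1, the major dentin collagen chain, was below the floor at E16 and at least 1.95-fold higher by its brightest probe set (27.6, 160 and 6650) and 1.56-fold by the other. Col1a2 differed by 1.11-fold (992, 1099 and 6264), so both chains were much higher at P3 than at E18. Col26a1, an emilin-domain collagen, was 6.64-fold lower (1182, 178 and 111), Col8a1, a short-chain network collagen, 2.85-fold lower with log2 -1.54 by a second probe set, and Col19a1 4.75-fold higher (114, 541 and 248). Of 30 genes for collagen folding and cross-linking, 4 were higher and 4 lower. Pcolce, the enhancer of procollagen cleavage, was 3.64-fold higher (1014, 3691 and 4764; log2 1.08 by another probe set) while the cleaving enzyme Bmp1 was lower, as given above.

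In 44 measured small proteoglycans and matricellular genes, 12 were higher and 9 lower (median -0.12). The leucine-rich proteoglycan genes Dcn and Lum, which regulate collagen fibrils, were 5.59-fold (401, 2243 and 6018) and 2.80-fold higher (1101, 3078 and 3293), with a bound of log2 0.37 by another Dcn probe set. Thbs4, a thrombospondin of tendon and muscle attachments, was at least 8.59-fold lower (705, 74.1 and 137). The hyaluronan synthase genes went opposite ways. Has2, the main synthase of embryonic mesenchyme, read 550 at E16, 43.3 at E18 and 65.5 at P3, at least 6.71-fold lower and at least 4.85-fold by its second probe set. Has3 read 191, 882 and 91.5 and was 4.63-fold higher. Of 29 measured matrix proteases and inhibitors 7 were lower and 2 higher, with a median of -0.35; over all genes 8.13% were lower and 8.1% higher, and the difference from them was not tested. Mmp2, a gelatinase of mesenchyme, was 2.45-fold lower with log2 -1.29 by both probe sets, and Adamts1, a versican-cleaving protease, 3.68-fold lower (619, 168 and 168).

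General proliferation genes were near level between E16 and E18. Mki67, a marker of cycling cells, read 2114 at E16, 2006 at E18 and 629 at P3, and Cdk1 2322, 2014 and 648, differences of 1.05-fold and 1.15-fold. Of 63 measured mitosis genes 4 were higher and 3 lower (median 0.08), and of 57 replication genes 3 and 5 (median -0.14). Plk1, a mitotic kinase, was 4.47-fold lower (437, 97.8 and 20.6), and E2f1, a factor driving S phase genes, 3.95-fold lower with a bound of log2 -2.06 by its second probe set. The list of G1 cyclins and CDK inhibitors had 7 of 25 measured members higher and 2 lower with a median of -0.09, so the bulk of it was level. Of the 23 that reached the floor at E16, 5 were higher. Cdkn1a, an inhibitor of G1 kinases, read 180, 1182 and 1798 and was 6.57-fold higher, and Cdkn1b, a related inhibitor, 2.32-fold (218, 505 and 536). Gadd45b, a stress-response gene, was at least 11.0-fold and 7.49-fold higher by 2 probe sets (80.7, 901 and 468 by the brighter). Cdk6, the partner of D cyclins, was 2.33-fold lower with log2 -1.10 by its other probe set. A further inhibitor gene, Cdkn1c, differed by 1.25-fold (1524, 1903 and 3664).

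Cytosolic ribosomal protein genes and respiratory chain subunits were shifted as whole lists. Of 43 measured ribosomal protein genes 19 were higher and 0 lower, and the median was 0.91. Of 77 measured respiratory chain subunits 31 were higher and 1 lower (median 0.81), and 5 of the 41 with several probe sets were higher by every one. Mitochondrial ribosomal protein genes had 9 of 72 higher and 2 lower (median 0.30). Rpl27a read 367 at E16, 6127 at E18 and 1008 at P3 (16.7-fold higher), but Atp5b, a core subunit of ATP synthase, was level (3674, 3502 and 1095). Atp5k, a small subunit of the same enzyme, was 3.98-fold and 4.45-fold higher by _x_at probe sets and 3.72-fold by a plain _at one. Rps10 was 3.88-fold higher by its brightest probe set, with log2 1.46 to 2.64 by 4 others and a bound of -0.13 by the last.

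These list medians differed with the kind of probe set. Probe sets named _x_at, whose probes can also match other transcripts, were at least 2-fold higher in 13.7% and lower in 4.78% of 1610 measured, a median of 0.24. Plain _at probe sets were higher in 6.57% and lower in 8.52% of 18860, a median of -0.08. In 2286 genes with both plain and other kinds of probe set, the plain ones had the lower difference in 64.0%. Over all 2286, the median of plain minus other was -0.24 log2 units. With plain probe sets alone, the median was 0.18 for cytosolic ribosomal proteins and 0.39 for the respiratory chain, and Rps10, Rps24 and Rpl41 were lower at E18, by log2 -0.13, -0.95 and -0.24. Values of genes with near-identical copies are uncertain on short-oligonucleotide arrays, and the part of such copies in this difference was not tested. The 3′ over 5′ ratio of actin given above, from 1 probe set at each end, moved with the same comparison, and its part was not tested.

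Markers of other cell types moved in both directions, and in pooled tissue more cells of a type and more RNA per cell cannot be told apart. Of 34 measured epithelial markers, 17 were higher and 0 lower with a median of 0.96, and 5 of 11 with several probe sets were higher by every one. Of the 29 that reached the floor at E16, 15 were higher, against 7.44% of all such genes. Cdh1, the epithelial cadherin, read 277 at E16, 1105 at E18 and 386 at P3 (a 4-fold difference), and the splicing factor gene Esrp1 225, 1563 and 269 (6.96-fold). The basal keratin gene Krt14 was 2.78-fold higher (598, 1664 and 442; log2 1.32 by another probe set). Amelx and Ambn, which encode enamel matrix proteins, read 51.5, 564 and 2340 (at least 6.88-fold higher) and 826, 3229 and 5377 (3.91-fold higher). Cdh1, Esrp1 and Krt14 were thus highest at E18, and Amelx and Ambn at P3. Enam, Klk4, Krt15 and Krt19 were among the 12 markers below the floor on both arrays.

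Of 30 macrophage and leukocyte markers, 20 were measured, 6 higher and 0 lower (median 0.61), and of the 14 that reached the floor at E16, 3 were higher, against 7.44% of all such genes. Mrc1, the mannose receptor of tissue macrophages, read 93.3 at E16, 440 at E18 and 1804 at P3 (4.72-fold higher), and C1qb, a complement subunit, was higher by at least log2 2.93 (79.6, 624 and 656). The pan-leukocyte gene Ptprc differed by 1.17-fold (149, 127 and 186). Osteoclast genes had the opposite direction, with 6 of 11 measured lower, 0 higher and a median of -1.07, which was -0.40 at 2 times the floor. Acp5, the tartrate-resistant phosphatase, was 2.72-fold lower (395, 145 and 137) and the protease gene Ctsk 3.13-fold (1522, 486 and 2558). The osteoclast genes Calcr, Oscar, Dcstamp and Ocstamp were below the floor on both arrays, and summed marker signal was 5622 at E16 and 2993 at E18.

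Endothelial genes had 6 of 26 measured lower and 0 higher (median -0.39, and -0.60 as plain ratios with no floor). Kdr, the main VEGF receptor, read 2571, 1062 and 846 (2.42-fold lower), while the junction gene Cdh5 differed by 1.13-fold. Erythroid markers had 5 of 13 lower and 1 higher (median -0.07, but -0.79 with both arrays at the floor). Alas2, which starts haem synthesis in red cells, was 7.48-fold lower (763, 102 and 116), as Hbb-y was. Pericyte and smooth muscle genes had 1 of 13 higher and 1 lower, and Rgs5, a pericyte regulator of G protein signalling, was 6.03-fold higher (359, 2163 and 1644; log2 1.13 and a bound of 0.16 by others). Cartilage markers Col2a1 and Acan were below the floor on both arrays. Of 9 measured cartilage genes 3 were higher and 1 lower (median 0.13, but 0.75 by the median of probe sets). Of the 6 that reached the floor at E16, 1 was higher and 1 lower, against 7.44% and 8.75% of all such genes. Of 7 measured muscle genes 0 passed 2-fold, and of 10 neuron genes 1 was higher and 1 lower.

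**Figure D5:**
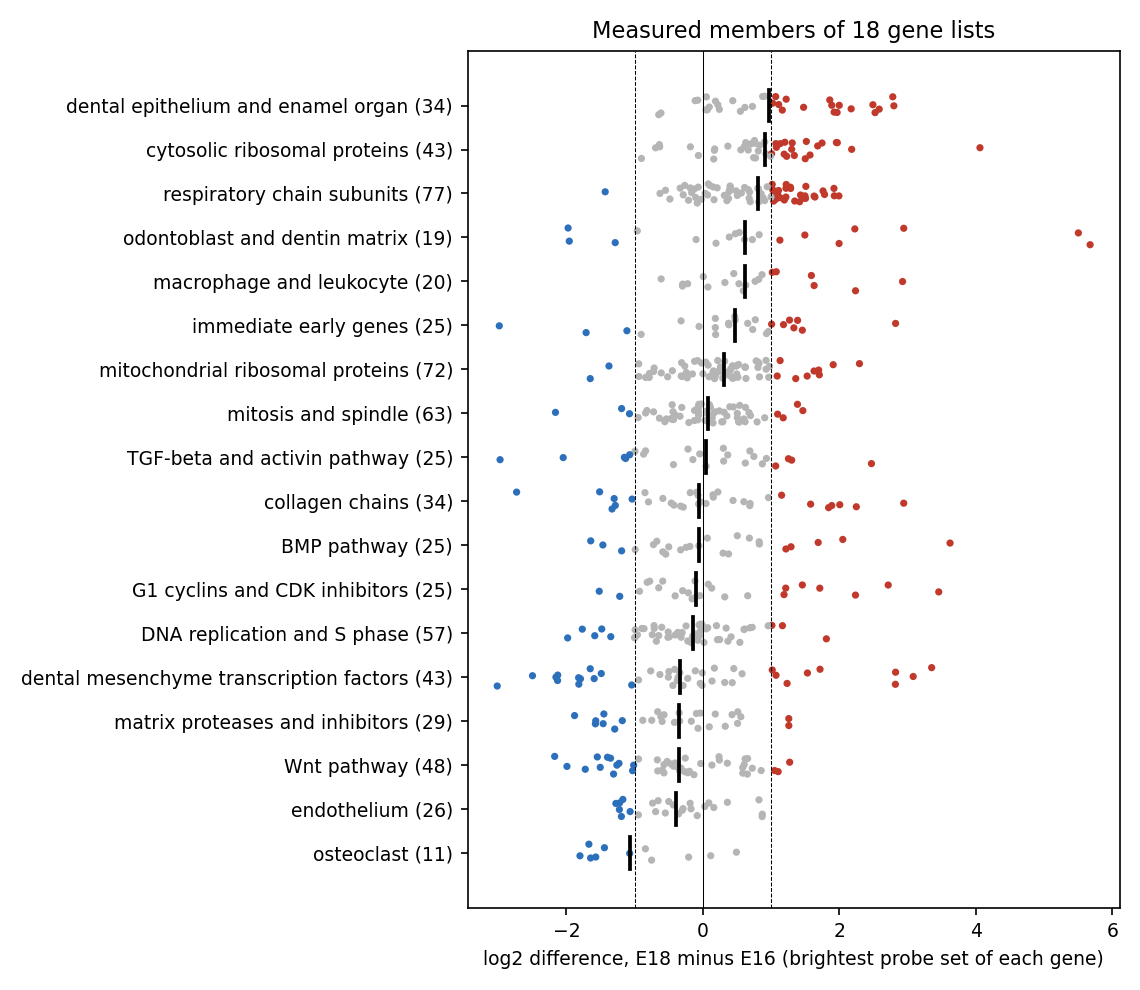
Log2 difference E18 minus E16 of each measured member (points) of 18 gene lists by its brightest probe set, with the list median as a black bar and the number measured in brackets; dashed lines mark 2-fold, red is higher and blue lower. Epithelium (0.96), cytosolic ribosomal proteins (0.91) and respiratory chain (0.81) have the highest medians and osteoclast genes (-1.07, but -0.40 at 2 times the floor) the lowest.

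The remaining lists were near level or mixed. Of 61 secretory pathway genes 5 were higher and 3 lower (median 0.07), and Manf, a protein released from the stressed endoplasmic reticulum, was 4.62-fold higher (713, 3294 and 1181). Of 28 glycolysis and hypoxia genes 4 were higher and 2 lower (median 0.14), with Ldha at 3707, 4226 and 698. Among 58 axon guidance and neurotrophic genes 5 were higher and 11 lower, including Opcml, an adhesion protein of neurons (1124, 143 and 83.3, 7.86-fold lower, but a bound of log2 -0.67 by another probe set). Heat shock genes had 1 of 24 higher and 4 lower, imprinted genes 2 of 28 and 5, interferon genes 2 of 20 and 2, and adipocyte genes 1 of 4 and 1. Housekeeping genes had 0 of 16 higher and 1 lower (Tfrc, the transferrin receptor, 2.48-fold), with a median of 0.08.

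Outside the lists, the highest genes with a single measured probe set on both arrays included Scin, an actin-severing protein (126, 1377 and 4031, 10.9-fold higher), Rpgrip1, a protein of the ciliary transition zone (9.30-fold), and the hair keratin-associated gene Krtap17-1 (121, 1121 and 120, 9.24-fold). Lowest with Eya1, Inhba and Alas2 were AI606473 (1819, 201 and 222, 9.06-fold lower) and Lrrn1, a leucine-rich membrane protein (2655, 393 and 348, 6.75-fold lower). Among bounds, Susd5 was at least 13.4-fold higher by 1 probe set and 1.18-fold by another, and Gpr50, an orphan receptor, and Vip, a neuropeptide gene, were at least 9.64-fold and 6.97-fold lower. Besides Calb1, Dmp1 and Susd5, the widest gaps between probe sets were in Ube2w, Srsf1, Runx1, Malat1, Pde5a, Mkrn1 and Csnk1d. For Srsf1, a splicing factor, 6 probe sets ran from log2 -2.56 to 1.24, and for Runx1 4 ran from -1.30 to 2.45. For these genes the array gives no single direction.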

How the data were processed

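Papillae at E16, E18 and P3 were measured on 1 array each, and samples were grouped by the stage in their labels. The deposited file holds ratios for 45101 probe sets, including 64 controls. The submitters' processing notes name GCOS with no version. Scaling and centring were worked out from the values, since their description is not given in the sources used here. In 90.4% of probe sets the middle of the 3 deposited ratios is 1, so the authors' values divide each probe set by its own middle value; the other 4347 have a highest middle of 0.998, as with a fixed divisor. Both leave E18 over E16 intact, unless the ratios were also cut at a lower limit. The E16 and E18 signals of Dspp, 41.911 and 4191.1, hold the same digits, as a limit would give. So do the E16 and P3 signals of Calb1. Whether there was a limit was not tested, and with one the recovered signals and bounds of both genes would be uncertain.

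The design had assumed signals. A signal was therefore recovered as the smallest that made all 3 arrays whole steps of 0.1 units within a relative 3e-07, using factors of 0.718 (E16) and 1.08 (E18) relative to P3. It may be understated by a common factor, which affects the floor and the choice of probe set but not the deposited ratio. The recovery was checked on simulated data with lower top signals than those of Calb1 and no limit on ratios. That check therefore does not cover Calb1 and Dspp. Signals below the floor of 82 were set to it before log2.

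Gene names came from a table of the platform annotation (34945 probe sets with 1 symbol, 932 with several, 9160 not listed). The brightest probe set had the highest mean recovered signal over the 3 arrays, P3 included. A list counted as shifted when its median lay at least 0.5 log2 units from that of all genes. Members, the 39 lists and the rule for named genes were chosen with earlier results of these data known. The rule takes the 15 highest and 15 lowest genes whose probe sets all passed 2-fold, up to 8 members past 2-fold and the first 2 of each list, the 5 highest and lowest with a single probe set, the 5 largest bounds each way and the 10 widest gaps between probe sets. Alpl, Sparc, Barx1, Dlx1, Twist1, Apcdd1, Lum, Krt14, Edaradd, Atf2 and Lpin2 fall outside it and were chosen after their values were seen. Python 3.11.15, NumPy 2.4.6 and pandas 2.3.3 were used. Alternatives were other normalizations, floors, probe set rules and an added shift.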

Additional observations from a re-analysis of the deposited data

How the results depend on the processing

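With 1 array per stage no replicate could be left out, and no paired analysis was possible because each stage has 1 array. Without a floor, as plain ratios, 2159 genes passed 2-fold upward and 2175 downward, and 168 and 149 were so by all probe sets; more genes are counted there (18193). With plain _at probe sets alone, 29 and 35 genes were higher and lower by all probe sets, and the counts were 740 higher and 972 lower; fewer probe sets are counted there. Quantile normalization gave 960 and 864, median scaling 984 and 963, a floor of 2 times 82 gave 739 and 743, and the median of probe sets 737 and 709. An added shift of E18 by the median gene, chosen after seeing the data, gave 1072 and 873.

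No list median past the 0.5 threshold changed sign. With plain probe sets alone the cytosolic ribosomal (0.18) and respiratory chain (0.39) medians dropped under it. With 2 times the floor the immediate early list and the osteoclast list (-0.40) did, and the odontoblast list (0.43) did when both arrays had to reach the floor. Other lists passed it: retinoic acid (-0.59), erythroid (-0.79) and dental follicle (0.47) at 2 times the floor, erythroid (-0.79) and dental follicle (0.49) with both arrays at the floor, endothelium (-0.60) without a floor and cartilage (0.75) by the median of probe sets. Of 257 named genes past 2-fold, 159 stayed past 2-fold in the same direction under every alternative that gave them a value; the skeletal muscle list had no measured member at 2 times the floor. Reversed log2 differences, whose cause was not tested, were Dtl -0.43 and Ssr4 -0.35 by the median of probe sets. With plain probe sets alone they were Slc20a1 0.81, Hmmr -0.55, Pttg1 -1.62, Slc2a1 -1.27, Pdk1 -0.44, Pfkl 0.50, Gfra2 -0.12, Atf4 -0.14, Ssr4 -0.35, Hspa1b -0.47, Rps10 -0.13, Rps24 -0.95 and Rpl41 -0.24.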
